A study of Mus musculus with 17 samples.

Results

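Whole mammary glands of mice with an estrogen receptor transgene were compared with glands of mice with an aromatase transgene, once in each of 2 sequencing layouts. All mice were C57Bl/6 females that had never been pregnant. The receptor mice, named CERM in the labels, had the genotype tet-op-Esr1/MMTV-rtTA, and the aromatase mice, named AROM, had tet-op-CYP19A1/MMTV-rtTA. Both groups thus carried a tetracycline operator transgene and the rtTA transactivator gene under the promoter of mouse mammary tumor virus, which is active mainly in mammary epithelial cells. Age, tetracycline or doxycycline exposure and any drug treatment were not given in the sources used here. Polyadenylated RNA was sequenced single-end in 2 libraries and paired-end in 3 libraries of each of these genotypes, 10 of the 17 samples of the series.

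The values were 4 pooled columns of FPKM, fragments mapped to a transcript, divided by its length and by the library's mapped total, with 1 column for each genotype and layout. Genes were included when a single locus of the deposited table carried their symbol and when FPKM reached 1 in at least 2 of the 4 columns. These were 11626 genes, of 20420 loci with a symbol of their own and 30843 loci in all. Differences are CERM minus AROM in log2(FPKM + 1), a scale that understates the ratio of low values, and a gene was called higher or lower at a difference of 1 or more, a 2-fold change of FPKM + 1. No wild-type column entered a value, so each difference is relative to the other transgenic line.

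Estrogen receptor alpha is a nuclear receptor that binds estradiol and turns on genes such as that of the progesterone receptor, and aromatase makes estrogens from androgens. In the mammary gland the receptor sits in the hormone-sensing luminal cells of the ducts, which signal to neighbouring cells through factors such as amphiregulin and RANK ligand. Milk genes are switched on in alveolar luminal cells through the prolactin receptor and the factors Stat5 and Elf5, most of all in pregnancy and lactation. Whole glands also hold fat cells, fibroblasts, vessels, immune cells, skin-derived tissue and, where the dissection includes it, muscle.

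Each column held 1 value per gene, so no replicate error could be had and no test was run, and the layouts were the only check on each other. Per the labels' protocols the libraries were sequenced by both methods, and whether the paired-end columns come from the same RNA as the single-end ones was not given in the sources used here. The layouts can therefore not be taken as independent replicates. The sequencing depth of the columns could not be recovered from the table. Over the genes analysed, median FPKM was 9.34 in AROM and 9.47 in CERM single-end, and 7.77 and 9.06 paired-end, so the paired-end AROM column was the lowest. The median difference of all genes was -0.03 single-end and 0.18 paired-end, and positive paired-end list medians are to be read against the latter. A value of 0 can be a failed estimate. Psap, the gene of the lysosomal saposin precursor, was listed at 0 in the paired-end AROM column and at 1633 FPKM in CERM, against 621 FPKM in AROM and 668 in CERM single-end, and a 0 in some column occurred for 80 genes.

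The genes that the transgenes carry serve as a check on the labels. Esr1, the gene of estrogen receptor alpha, was at 8.41 FPKM in AROM and 8.49 in CERM single-end, and at 7.87 and 8.41 paired-end. These values, 1.01 and 1.07 times AROM, show no clear over-expression at the Esr1 locus in either layout, and CERM is used below as the name of the labelled columns. Whether reads of the Esr1 transgene are counted at this locus is not known, and the value may not measure the transgene. Mouse Cyp19a1 was at 0.0591 and 0.0502 FPKM in the AROM columns and listed at 0 in both CERM columns. The aromatase transgene carries the human symbol and was not measured by this locus. Pgr, the progesterone receptor gene, was at 1.496 FPKM in AROM and 1.14 in CERM single-end, and at 0.782 and 2.19 paired-end. CERM was thus the lower column for Pgr in 1 layout and the higher in the other, by -0.22 and 0.84 on the log2 scale.

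Most genes higher in CERM single-end were also higher paired-end, and most genes lower in CERM in 1 layout were past 2-fold in that layout alone. Single-end, 212 genes (1.82%) were higher and 78 (0.671%) lower, and paired-end, 491 (4.22%) were higher and 266 (2.29%) lower. In both layouts together 166 genes (1.43%) were higher and 24 (0.206%) lower, and 10 genes (0.086%) were past 2-fold in opposite directions. Of the genes higher single-end, 78.3% were also higher paired-end, and of those higher paired-end 33.8% were also higher single-end. The corresponding shares of the lower genes were 30.8% and 9.02%. Across all 11626 genes, which share columns and are not independent, the differences of the layouts had a Pearson r of 0.51 and a Spearman rho of 0.66, and 69.4% had the same sign. Genes past 2-fold in 1 layout only mostly kept their direction in the other: 273 of 322 genes higher only paired-end and 215 of 235 lower only paired-end had the same sign single-end, with median single-end differences of 0.37 and -0.42. Of the 39 higher only single-end 29 had the same sign paired-end, and of the 51 lower only single-end 33 had it.

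**Figure D1:**
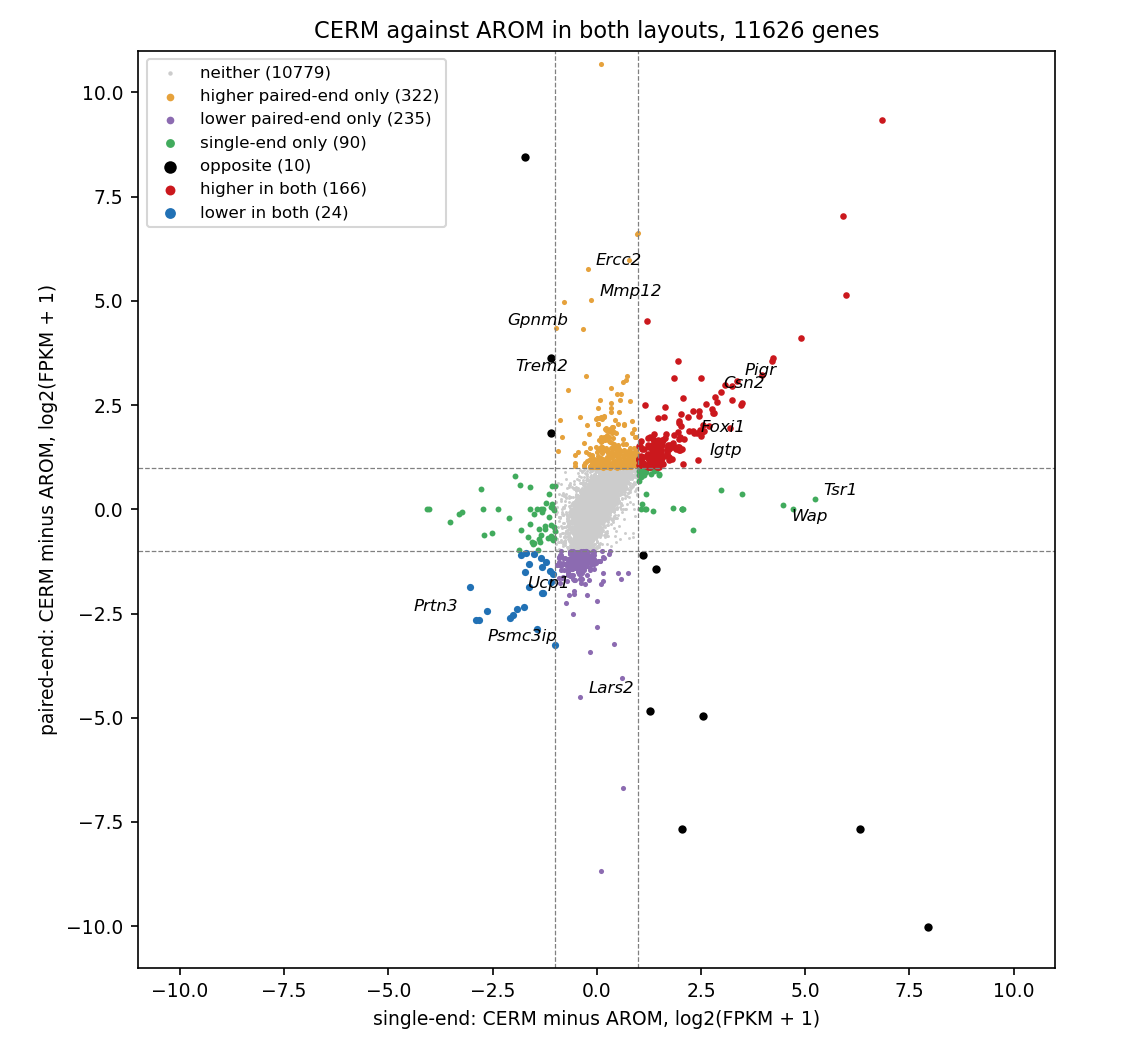
Each point is 1 of 11626 genes, with the single-end difference CERM minus AROM in log2(FPKM + 1) on the x axis and the paired-end difference on the y axis; dashed lines mark a 2-fold change and colours the calls. The 166 red genes, which include Csn2 and Pigr, lie along the diagonal, while the 322 orange genes pass the dashed line on the paired-end axis alone, with a median single-end difference of 0.37; among them Mmp12, Gpnmb and Trem2 lie between -0.34 and -0.13 on the single-end axis.

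The Pearson correlation of the layouts was weaker among highly expressed genes, while the share of genes with the same sign changed little. Among the 3993 genes with a mean of 3 to 10 FPKM over the 4 columns r was 0.61 and 70.2% had the same sign. For the 1513 genes with a mean of 30 to 100 FPKM r was 0.32 and the share 67.3%. For the 693 genes with a mean of at least 100 FPKM r was 0.21 and the share 71.3%. These genes include small RNA loci with extreme values, such as Snord52 with differences of 7.95 and -10.02. No r by expression level was computed without them. The paired-end columns also spread further, with an SD of the differences across genes of 0.61 against 0.44 single-end. Of the 166 genes higher in both layouts, 68 were below 1 FPKM in both AROM columns and entered only through their CERM values, and 84 were at 1 FPKM or more in all 4 columns. The share of higher genes among the paired-end calls depended on the scaling: it was 64.9% with the values as deposited, 42.3% after median-ratio scaling of the columns and 51.7% after quantile normalization.

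Milk genes and interferon-inducible GTPase genes were higher in CERM in both layouts, and the promoters of 4 of them are shown because members of each group share a short motif. The sequences are RefSeq promoters of the build GRCm38.p6, from 250 bases before to 50 bases after the start site, written 5′ to 3′ on the gene's strand, and the capitals mark the motif. The first is that of Csn2, the beta-casein gene, at chr5:87699376-87699675 on the minus strand, with the Stat motif TTCNNNGAA starting at position -93 from the start site. The other casein promoter is that of Csn1s2a, the gene of an alpha-S2 casein, at chr5:87774200-87774499 on the plus strand, with the same motif starting at position 21.
Csn2: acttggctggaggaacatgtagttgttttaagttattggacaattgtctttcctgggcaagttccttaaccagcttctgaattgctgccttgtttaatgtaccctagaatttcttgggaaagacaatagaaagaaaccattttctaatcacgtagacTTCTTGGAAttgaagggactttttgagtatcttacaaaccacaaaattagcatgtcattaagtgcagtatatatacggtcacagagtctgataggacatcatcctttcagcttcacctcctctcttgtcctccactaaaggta
Csn1s2a: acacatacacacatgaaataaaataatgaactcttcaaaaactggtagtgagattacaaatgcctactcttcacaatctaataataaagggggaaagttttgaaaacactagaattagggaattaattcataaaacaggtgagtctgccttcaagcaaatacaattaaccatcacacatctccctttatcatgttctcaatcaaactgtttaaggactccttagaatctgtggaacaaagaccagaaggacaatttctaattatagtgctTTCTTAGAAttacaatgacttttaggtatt

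The next pair belongs to Igtp and Irgm2, neighbouring genes of GTPases that act in cell-autonomous defence against intracellular pathogens. The motif of GAAA, 2 bases of any kind and again GAAA, the core of the interferon-stimulated response element, started at position -34 in the Igtp promoter, at chr11:58199306-58199605, and at position -64 in that of Irgm2, at chr11:58214727-58215026, both on the plus strand. The matched letters were the same, GAAACTGAAA.
Igtp: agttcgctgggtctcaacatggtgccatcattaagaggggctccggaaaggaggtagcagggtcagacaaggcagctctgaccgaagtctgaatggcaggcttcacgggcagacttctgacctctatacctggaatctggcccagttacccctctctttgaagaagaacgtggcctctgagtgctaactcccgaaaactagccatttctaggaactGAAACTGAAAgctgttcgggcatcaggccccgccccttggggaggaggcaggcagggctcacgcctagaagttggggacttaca
Irgm2: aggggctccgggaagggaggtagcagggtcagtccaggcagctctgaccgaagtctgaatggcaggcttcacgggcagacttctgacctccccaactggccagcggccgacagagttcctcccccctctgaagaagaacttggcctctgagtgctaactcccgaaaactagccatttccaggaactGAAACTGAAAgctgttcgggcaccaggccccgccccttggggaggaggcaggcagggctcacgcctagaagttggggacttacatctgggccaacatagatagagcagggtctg

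All motifs were searched on both strands, and the Stat and interferon matches did not overlap in the promoters shown. TTCNNNGAA was present in 8.30% of the 32851 promoters, in 6.95% of the 10551 found for the genes analysed, in 15.9% of the 132 promoters found for genes higher in both layouts, and in 4 of the 11 found for milk genes (36.4%). The milk genes with it were Csn2, Csn1s2a, Csn1s1, with the letters TTCTTAGAA as in Csn1s2a, and Glycam1. The interferon motif was present in 3.44% of all promoters, in 3.04% of those of the genes analysed, in 10.6% of those of genes higher in both layouts, in 9 of the 17 of interferon-stimulated genes (52.9%) and in 7 of the 8 of the GTPase genes (87.5%). The palindromic estrogen response element, GGTCA and TGACC with 3 bases of any kind between them, was in 0.0700% of all promoters and in none of the 10551 found for the genes analysed. A match describes letters in this window and no binding was measured.

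Milk protein and milk fat genes were higher in CERM in both layouts. Of the 16 analysed, 12 were past 2-fold single-end and 11 paired-end, with 10 in both, and none was 2-fold lower. The median difference was 1.998 single-end and 1.49 paired-end, 1.31 above that of all genes. Whether more secretory cells or more RNA per cell were present cannot be told apart in whole glands. Csn2 was at 764 FPKM in AROM and 5499.7 in CERM single-end, and at 486 and 3169.9 paired-end, 7.19 and 6.52 times AROM. Both CERM columns were above both AROM columns.

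Csn1s2a, Csn1s1 and Csn3 followed the same order of columns. Csn1s2a was at 554 FPKM in AROM and 4411 in CERM single-end, and at 367 and 2568 paired-end. Csn1s1, the alpha-S1 casein gene, was at 630.3 and 2549 FPKM single-end and at 405 and 1631 paired-end, so that the ratio was 4.04 in the first and 4.03 in the second layout. Csn3, which encodes the kappa-casein that stabilises casein micelles, was at 159.6 FPKM in AROM and 655 in CERM single-end, and at 88.7 and 438 paired-end. Csn1s1, Csn2, Csn1s2a and Csn3 are neighbours on chromosome 5. The paired-end value was below the single-end one for each of these caseins in both genotypes, while the ratios stayed near each other.

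Genes of other milk components were also higher. Glycam1, a secreted mucin-like glycoprotein gene also used as a marker of lymph node vessels, was at 4.99 FPKM in AROM and 65.5 in CERM single-end, and at 5.501 and 37.2 paired-end. Madcam1, another gene of those vessels, was at 1.77 and 2.36 FPKM single-end and at 0.827 and 1.64 paired-end, and of the 4 lymph node stroma genes analysed only Glycam1 was past 2-fold. Lalba, the alpha-lactalbumin gene needed for lactose synthesis, was at 68.2 and 227 FPKM single-end and at 48.04 and 132 paired-end. Lao1, an L-amino acid oxidase gene, had differences of 2.80 and 2.32, and Btn1a1, whose butyrophilin coats milk fat globules, of 1.98 and 2.07. The folate receptor gene Folr1 and the phosphate transporter gene Slc34a2 were the remaining members past 2-fold in both layouts, with differences between 1.45 and 1.75.

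The whey acidic protein gene did not repeat. Wap was at 3.95 FPKM in AROM and 109 in CERM single-end, a ratio of 27.5, but at 57.1 and 61.8 FPKM paired-end, a ratio of 1.08. Only the single-end AROM column was low. Csn1s2b, a second alpha-S2 casein gene, had the same pattern, with 0.183 and 4.82 FPKM single-end and 4.19 and 2.66 paired-end. The milk fat gene Plin2, also abundant in fat cells, differed by 0.37 single-end and -0.05 paired-end. Mfge8 and Xdh, which encode milk fat globule proteins, had differences between 0.49 and 0.59 in both layouts and past 2-fold in neither.

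**Figure D2:**
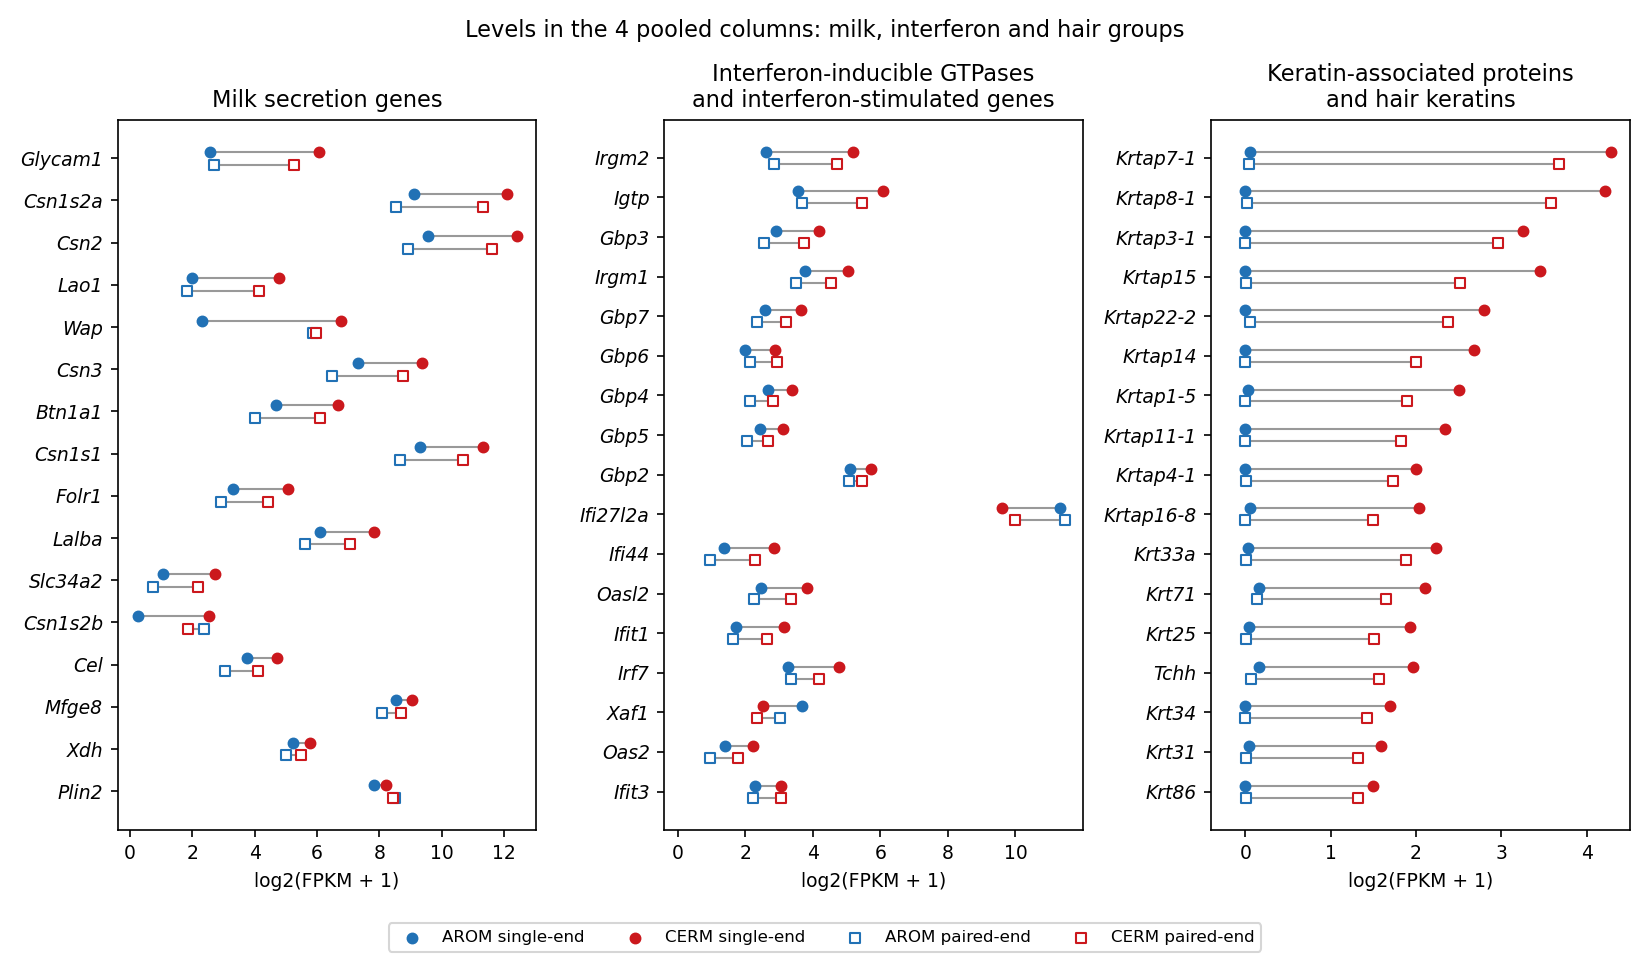
Levels in log2(FPKM + 1) on the x axis for the milk genes, the interferon-inducible GTPase genes with 8 interferon-stimulated genes, and keratin-associated protein and hair keratin genes; blue is AROM and red CERM, circles are single-end and squares paired-end columns. Red lies right of blue in both layouts for most genes, and Wap, Csn1s2b and Plin2 differ between layouts, while Ifi27l2a and Xaf1 have red to the left.

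Regulators of alveolar differentiation differed less. Of 9 analysed, Elf5 alone was past 2-fold in both layouts, at 38.99 FPKM in AROM and 83.6 in CERM single-end, and at 21.1 and 59.5 paired-end. Prlr, the prolactin receptor gene, was at 9.198 and 9.87 FPKM single-end but at 5.49 and 18.7 paired-end. Stat5a, the main signal transducer of that receptor in the gland, differed by -0.05 and -0.06, and Stat5b by 0.38 and 0.33. The list median was 0.32 single-end and 0.49 paired-end, the latter 0.31 above that of all genes.

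Several secretory and epithelial genes outside the milk list ranked among the 15 highest in both layouts. Pigr, whose receptor carries immunoglobulin A across epithelia into milk, was at 1.24 FPKM in AROM and 21.9 in CERM single-end, and at 0.721 and 13.5 paired-end. Foxi1, which encodes a forkhead transcription factor of ion-transporting epithelia, was at 4.54 and 26.3 FPKM single-end and at 2.89 and 18.96 paired-end. Gjb6, the connexin 30 gene, was at 2.48 and 20.4 FPKM single-end and at 1.36 and 12.6 paired-end. For each of these genes both CERM columns lay above both AROM columns. The mucin sialyltransferase gene St6galnac1 was below 0.1 FPKM in both AROM columns and at 6.55 and 5.02 FPKM in CERM. Mrgprg, a Mas-related receptor gene, differed by 2.18 and 2.21.

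Interferon-inducible GTPase genes were higher in CERM throughout. All 9 analysed had positive differences in both layouts, 5 were past 2-fold single-end and 4 paired-end, with medians of 1.05 and 0.86, the latter 0.69 above that of all genes. Igtp was at 10.9 FPKM in AROM and 66.7 in CERM single-end, and at 11.9 and 42.7 paired-end. Irgm2 was at 5.14 and 35.3 FPKM single-end and at 6.16 and 25.4 paired-end. For both genes the AROM value was slightly higher paired-end and the CERM value lower, so the paired-end difference was the smaller. Irgm1 and Gbp3 were the others past 2-fold in both, with paired-end differences of 1.04 and 1.17. Under median-ratio scaling or quantile normalization 2 of the 9 were past 2-fold in both layouts.

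Guanylate-binding protein genes outside that list were looked at after their values were seen. Gbp10 was at 0.193 FPKM in AROM and 5.52 in CERM single-end, and at 0.295 and 5.63 paired-end. Its neighbours Gbp8, Gbp9 and Gbp11 had differences between 1.54 and 1.76 in the 2 layouts. All 11 Gbp genes analysed had positive differences in both, but 3 of them, Gbp8, Gbp10 and Gbp11, were below 1 FPKM in both AROM columns and entered only through CERM, which fixed their sign. These genes are similar in sequence, and how the authors' quantification divided shared reads among them was not given in the sources used here.

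Other interferon-stimulated genes were moderately higher, with exceptions in the other direction. Of 21 analysed, 19 had positive differences single-end and 17 paired-end, with medians of 0.55 and 0.60, the latter 0.43 above that of all genes. Oasl1, counted in both, was below 1 FPKM in both AROM columns and entered only through CERM, which fixed its positive sign. Oasl2, of the oligoadenylate synthetase family, and Ifi44 were among the members higher in both, by 1.07 and 1.34 paired-end. Ifi27l2a, a mitochondrial interferon-inducible gene abundant in these glands, was lower in both, at 2555 FPKM in AROM and 777 in CERM single-end, and at 2839 and 1008 paired-end. Xaf1 was lower by -1.16 and -0.69. Isg15 and Bst2, widely used interferon markers, differed by 0.31 and 0.05 single-end and by -0.07 and -0.24 paired-end. Under either scaling 1 gene was higher in both layouts and 1 lower.

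Antigen presentation and lymphocyte genes also had mostly positive differences. Higher past 2-fold in both layouts were 2 of 7 cytotoxic, 1 of 8 T cell, 1 of 7 class I and 0 of 6 class II genes. Over all genes the share was 1.43%. All 6 class II genes analysed had positive differences in both layouts, with medians of 0.70 and 0.63, the latter 0.46 above that of all genes, and none was past 2-fold. Of 7 class I presentation genes Tap1 alone was past 2-fold, and under either scaling none was in both layouts. Tap1, which carries peptides to class I molecules, was at 12.4 FPKM in AROM and 36.6 in CERM single-end, and at 12.8 and 27.1 paired-end. Its partner gene Tap2 differed by 0.49 and 0.02, and the immunoproteasome gene Psmb10 by 0.01 and -0.31. The 7 cytotoxic lymphocyte genes analysed had medians of 0.96 and 0.61, but 3 of them, Gzmb, Gzmk and Klrk1, were below 1 FPKM in both AROM columns and entered only through CERM, which fixed their positive sign. Gzma, a granzyme gene, was at 2.501 and 8.59 FPKM single-end and at 2.18 and 5.69 paired-end, and Gzmb differed by 1.40 and 1.10. Cd3g, a subunit gene of the T cell receptor complex, differed by 1.56 and 1.26, and the 8 T cell genes analysed, of which Il7r entered only through CERM, were positive in both. Under median-ratio scaling 1 cytotoxic gene was past 2-fold in both layouts, and under quantile normalization none was.

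A pair of eosinophil genes and the serum amyloid genes Saa1 and Saa2 were higher in both layouts, while other acute phase genes were not. The eosinophil genes belong to no list and were picked by rank. Ear11, an eosinophil-associated ribonuclease gene, was at 3.97 FPKM in AROM and 77.1 in CERM single-end, and at 4.15 and 47.1 paired-end. Prg2, the gene of eosinophil major basic protein, was below 0.1 FPKM in both AROM columns and at 3.48 and 5.49 FPKM in CERM, through which alone it entered. Saa1, an acute phase serum amyloid gene that mammary epithelium also expresses, was at 1.72 and 24.01 FPKM single-end and at 3.26 and 15.4 paired-end, and its neighbour Saa2 differed by 2.42 and 1.18. These were the members past 2-fold in both layouts among 11 complement and acute phase genes. Orm1, an orosomucoid gene, was lower in CERM without passing 2-fold (-0.70 and -0.63), and Hp, the haptoglobin gene, differed by 0.15 and -0.12. Saa1 and Saa2 are close in sequence, so their reads may be shared.

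Immediate early genes, which respond quickly to growth factors and stress, were also higher in both. The 15 analysed, of which Fosb entered only through CERM, had positive differences in each layout, with medians of 0.55 and 0.72, the latter 0.54 above that of all genes, and Atf3, Nr4a1, Fosb and Fos were past 2-fold in both. Nr4a1, an orphan nuclear receptor gene, was at 15.3 FPKM in AROM and 49.4 in CERM single-end, and at 9.62 and 33.7 paired-end. Fos was at 5.17 and 11.6 FPKM single-end and at 3.801 and 12.6 paired-end.

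Most hair genes were near 0 in both AROM columns and present in both CERM columns. These lists were chosen after the values were seen, and their analysed members entered mainly through CERM, so their counts lend no support to a difference. Summed over all 47 keratin-associated protein loci, FPKM came to 0.272 in AROM and 117 in CERM single-end, and to 0.131 and 72.9 paired-end. Summed over 21 hair keratin and inner root sheath loci it came to 2.12 and 30.2 single-end, and to 1.71 and 21.2 paired-end. Krt36, a hair keratin gene that made up most of these AROM sums, went the other way, at 1.59 FPKM in AROM and 0.599 in CERM single-end, and at 1.34 and 0.585 paired-end. It was below 1 FPKM in both CERM columns and entered only through AROM, which fixed its negative sign. Krtap7-1, a gene of the hair shaft matrix, was at 0.0405 and 0.0311 FPKM in AROM and at 18.6 and 11.8 in CERM. The 3 skin keratinocyte genes analysed had no common direction. Krtdap, expressed in differentiating keratinocytes, was lower in CERM, at 11.7 and 3.14 FPKM single-end and at 6.97 and 2.199 paired-end. Calml3, a calmodulin-like gene of epithelia, was higher by 1.28 and 1.52, and Sbsn differed by -0.16 and -0.57. Without the keratin-associated and hair keratin loci, 136 genes were higher in both layouts in place of 166, and 24 were again lower.

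Some genes higher in both layouts lay next to each other. Of the 11548 analysed genes with a place in the RefSeq gene order, 165 were higher in both layouts. Of these 165, 72 belonged to 18 runs in which called genes were at most 3 analysed genes apart. The 24 lower genes with a place formed no run. How many runs genes picked without regard to place would form was not computed, so the count alone does not show clustering. The longest runs were keratin and keratin-associated genes, 18 on chromosome 11, 10 on chromosome 16 and 5 on chromosome 15, and these entered mainly through CERM. Others were the casein genes, Spp1 with Gbp8 to Gbp11 on chromosome 5, Igtp and Irgm2 with Gm12250 on chromosome 11, and Trim34a, Trim12a and Trim30d on chromosome 7. Of these, Gbp8, Gbp10, Gbp11, Trim12a and Trim30d were below 1 FPKM in both AROM columns and also entered only through CERM. Trim12a, of an antiviral tripartite motif family with near-identical copies, was below 0.1 FPKM in both AROM columns and at 7.63 and 6.901 FPKM in CERM.

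Of the 24 genes lower in CERM in both layouts, Prtn3, Ifi27l2a and Krtdap were members of the 40 gene lists. These lists held 401 of the 11626 genes analysed. Psmc3ip, which encodes a partner of meiotic recombinases, was at 23.1 FPKM in AROM and 2.399 in CERM single-end, and at 20.5 and 2.39 paired-end. Prtn3, the gene of a neutrophil serine protease, was at 13.1 and 0.892 FPKM single-end and at 9.53 and 0.678 paired-end. It was below 1 FPKM in both CERM columns and entered only through AROM, which fixed its sign. The neutrophil gene S100a9 went the other way in both, by 1.22 and 1.28, so that this list had 1 member past 2-fold in each direction. H2-Ea-ps, the class II E alpha locus, which lacks a working promoter in C57BL/6 mice, was at 28.1 FPKM in AROM and 3.68 in CERM single-end, and at 13.2 and 1.601 paired-end. Its direction was opposite to that of the 6 class II genes above.

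The other genes lowest in both had varied functions. Pcsk6, a proprotein convertase gene, was at 24.5 FPKM in AROM and 5.07 in CERM single-end, and at 28.8 and 3.91 paired-end. Rasd1, which encodes a dexamethasone-inducible Ras-like protein, was at 53.2 and 16.6 FPKM single-end and at 64.96 and 17.01 paired-end. Adig, the adipogenin gene of fat cells, was at 314 and 127 FPKM single-end and at 465 and 114 paired-end. The water channel gene Aqp11 and Gchfr, the feedback regulator of tetrahydrobiopterin synthesis, had larger paired-end differences (-2.35 and -2.87) than single-end ones (-1.73 and -1.42). Rprml, Abhd1, Rarres1, Gfra4 and Gsta4, a glutathione transferase gene, completed the 15 lowest, with differences between -3.05 and -1.18.

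Macrophage genes were higher in CERM in the paired-end columns only. None of the 14 analysed was past 2-fold single-end and 8 were paired-end, all higher in CERM, and the median went from 0.15 to 1.28, 1.10 above that of all genes. The paired-end CERM column was the one that stood apart: from single-end to paired-end the median of these genes changed by 0.71 in CERM and by -0.27 in AROM. Trem2, a lipid-sensing receptor gene, was at 3.37 FPKM in AROM and 2.65 in CERM single-end, and at 2.98 and 35.8 paired-end. Lyz2, the lysozyme gene, was at 283 and 411 FPKM single-end and at 182 and 919 paired-end. Emr1, which encodes the F4/80 antigen, was at 5.54 and 6.44 FPKM single-end and at 4.76 and 25.6 paired-end.

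Not all macrophage genes passed 2-fold paired-end. C1qa, a complement subunit gene of tissue macrophages, differed by 0.09 and 0.17. Csf1r, the growth factor receptor gene that defines the lineage, was also higher paired-end but short of 2-fold, by 0.87 against -0.04 single-end. Mpeg1 was listed at 0 in both paired-end columns and at 9.13 and 10.3 FPKM single-end. Under median-ratio scaling 7 genes, and under quantile normalization 8, were higher paired-end. The dendritic and macrophage integrin gene Itgax, at 0.966 FPKM in AROM and 12.3 in CERM paired-end, differed by only 0.49 single-end.

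Outside the list, Mmp12 and Gpnmb had larger gaps between layouts than any listed macrophage gene. Mmp12, the macrophage elastase gene, was at 2.695 FPKM in AROM and 2.38 in CERM single-end, and at 1.69 and 85.8 paired-end. Gpnmb, a lysosomal glycoprotein gene, was at 6.75 and 5.14 FPKM single-end and at 4.15 and 102 paired-end. In both cases 3 columns were below 10 FPKM and the paired-end CERM column alone was high. Of 13 chemokine genes, Ccl9 and Ccl2 alone were past 2-fold, by 2.24 and 1.17 paired-end against 0.17 and -0.19 single-end. Ccl7 and Ccl8, which like them attract monocytes, differed by 0.11 and 0.50 single-end and by 0.43 and 0.17 paired-end. The difference of S100a8, a neutrophil and monocyte gene, was 0.70 single-end and 3.09 paired-end. Whether a library within the pooled column carried these values cannot be told from 1 value per gene.

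**Figure D3:**
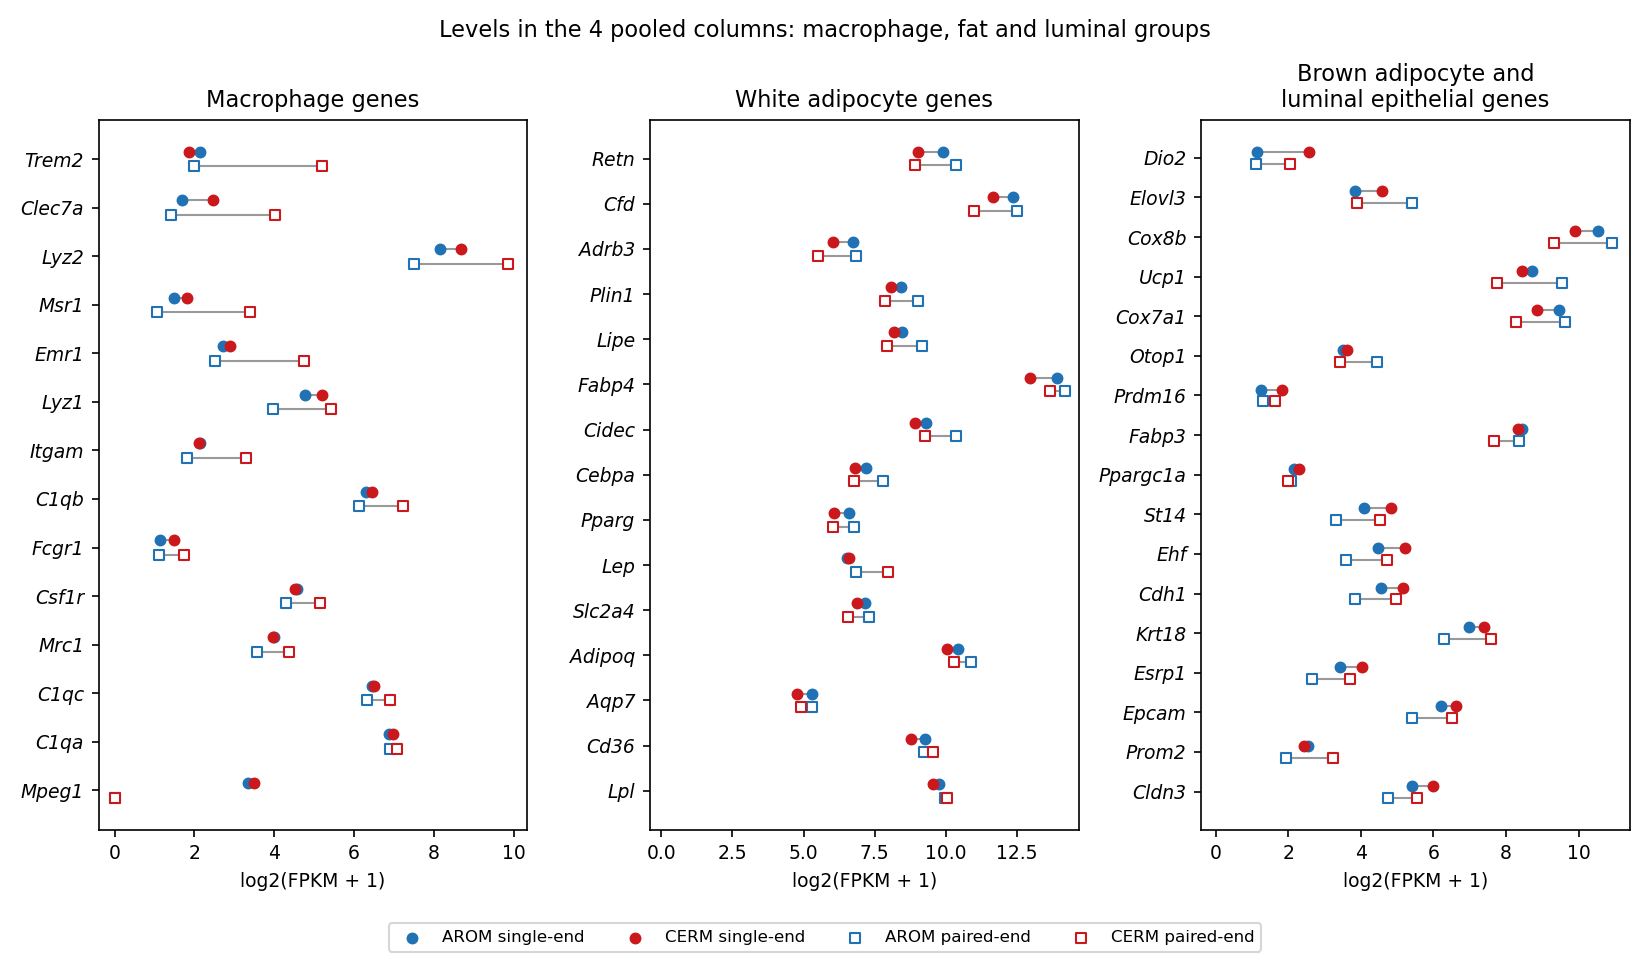
Levels in log2(FPKM + 1) on the x axis for macrophage, white adipocyte, and brown adipocyte and luminal epithelial genes; blue is AROM and red CERM, circles are single-end and squares paired-end columns. Macrophage circles of both genotypes lie close together for most genes while the red squares lie to the right, and for most adipocyte genes the red squares lie further left of the blue squares than the circles do.

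Fat cell genes were lower in CERM by more in the paired-end columns. Of 15 white adipocyte genes none was past 2-fold single-end, and paired-end 7 were lower and 1, Lep, higher, with medians of -0.39 and -0.76. Cfd, the adipsin gene, was at 5198 FPKM in AROM and 3228 in CERM single-end, and at 5829 and 2010.4 paired-end. Retn, the resistin gene, was at 957 and 523 FPKM single-end and at 1307 and 477 paired-end. Lep, the leptin gene, was at 90.95 and 95.8 FPKM single-end and at 115 and 252 paired-end. Cd36 and Lpl, fatty acid supply genes also expressed in other cells, changed sign between layouts, from -0.50 and -0.21 to 0.31 and 0.07. Under median-ratio scaling 7 white adipocyte genes were again lower paired-end, and under quantile normalization 3.

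Brown adipocyte genes did not agree between layouts. Their median was 0.12 single-end and -1.01 paired-end, with 5 of 9 lower paired-end and none lower single-end. Ucp1, the uncoupling protein that makes heat, was at 421 FPKM in AROM and 349 in CERM single-end, and at 739 and 214 paired-end. Elovl3, a fatty acid elongase gene induced in brown fat, was at 13.3 and 22.9 FPKM single-end, higher in CERM, and at 41.2 and 13.8 paired-end, lower in CERM. Dio2, the deiodinase gene, was higher in CERM by 1.42 and 0.94. Under each scaling 5 genes were again lower paired-end.

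Lipid synthesis and respiratory chain genes followed the adipocyte pattern. Of 17 fatty acid and triglyceride synthesis genes 7 were lower paired-end and none single-end, with medians of -0.31 and -0.87. Scd1, the stearoyl-CoA desaturase gene, was at 4314 FPKM in AROM and 3323 in CERM single-end, and at 7702 and 2477 paired-end, so that the AROM level was the higher and the CERM level the lower of the layouts in the paired-end columns. All 18 oxidative phosphorylation genes were below 0 in both layouts, with medians of -0.43 and -0.82, and 6 were past 2-fold paired-end. Cox6a1, a cytochrome c oxidase subunit gene, was at 863 and 654 FPKM single-end and at 1572 and 493 paired-end. Median-ratio scaling gave 10 lower synthesis genes and 9 lower respiratory genes paired-end, and quantile normalization 6 and 3.

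Luminal epithelial genes passed 2-fold paired-end only. Of 15 analysed 8 were higher paired-end and none single-end, with medians of 1.00 and 0.37, 0.82 and 0.40 above those of all genes. Between layouts the AROM values changed by a median of -0.74 and the CERM values by -0.11, against -0.24 and -0.07 over all genes. The lower paired-end AROM level thus accompanied the larger difference. This was not particular to luminal genes, as basal and myoepithelial genes changed by -0.72 in AROM and -0.11 in CERM. Epcam, an epithelial adhesion gene, was at 73.3 FPKM in AROM and 97.9 in CERM single-end, and at 41.8 and 90.3 paired-end. Krt18, a keratin gene of luminal cells, was at 125 and 167 FPKM single-end and at 76.7 and 191 paired-end. Krt7 changed sign, with differences of -0.70 and 0.50. Under median-ratio scaling 3 were past 2-fold paired-end, and under quantile normalization 7.

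Genes of hormone-sensing luminal cells, in which the receptor acts, agreed less well. Of 11 analysed none was past 2-fold single-end and 3, Calca, Cited1 and Foxa1, were higher paired-end. The medians were 0.04 and 0.89, the latter 0.72 above that of all genes. Under median-ratio scaling 1 gene was higher paired-end, and under quantile normalization 2. Areg, the amphiregulin gene and a receptor target, was at 27.5 FPKM in AROM and 15.7 in CERM single-end, and at 13.9 and 26.8 paired-end. Foxa1, the pioneer factor gene for receptor binding, was at 7.84 and 7.71 FPKM single-end and at 4.68 and 11.5 paired-end. Tnfsf11, the RANK ligand gene, was positive in both layouts, by 0.51 and 0.97. Of the 12 estrogen response genes 4 had the same sign in both layouts, none was higher past 2-fold in either, and Wisp2 alone was 2-fold lower single-end (-1.39, and -0.70 paired-end).

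Growth factor and estrogen-metabolising genes had at most 1 call per list in each layout. Over all genes 1.82% were higher single-end and 4.22% paired-end, so 1 call in lists this short is not a small share. Of 8 EGF family ligand and receptor genes, Erbb3 alone was past 2-fold, paired-end, by 1.19 against 0.71 single-end, and the single-end list median of 0.03 became -0.01 under quantile normalization. Of 11 genes of the insulin-like growth factor axis, Irs2 was past 2-fold single-end (1.15, and 0.93 paired-end) and Igfbp5, a binding protein gene of involution, paired-end (1.18, and 0.88 single-end). Among 7 steroid synthesis and estrogen-metabolising genes Cyp1b1, whose enzyme hydroxylates estradiol, was past 2-fold paired-end only, by 1.49 against 0.50.

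Basal, matrix and proliferation genes tended to lie higher in CERM paired-end without doing so single-end. Basal and myoepithelial genes had medians of -0.03 and 0.71, the latter 0.54 above that of all genes. Oxtr, the oxytocin receptor gene of myoepithelial cells, was at 47.6 FPKM in AROM and 14.5 in CERM single-end, and at 34.0 and 20.99 paired-end, and was lower in CERM in both. Fibroblast and matrix genes had medians of -0.25 and 0.47, the latter 0.29 above that of all genes, and 16 of 20 were above 0 paired-end against 4 single-end. Dcn, the decorin gene, was at 565 and 425 FPKM single-end and at 361 and 695 paired-end. The 24 proliferation genes had medians of 0.04 single-end, which became -0.03 under quantile normalization, and 0.51 paired-end, 0.34 above that of all genes, with 1 past 2-fold. Skeletal muscle genes, at summed levels of 30781 to 50248 FPKM in the 4 columns, had medians of 0.10 and 0.39, the latter 0.21 above that of all genes, and none of the 19 was past 2-fold.

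**Figure D4:**
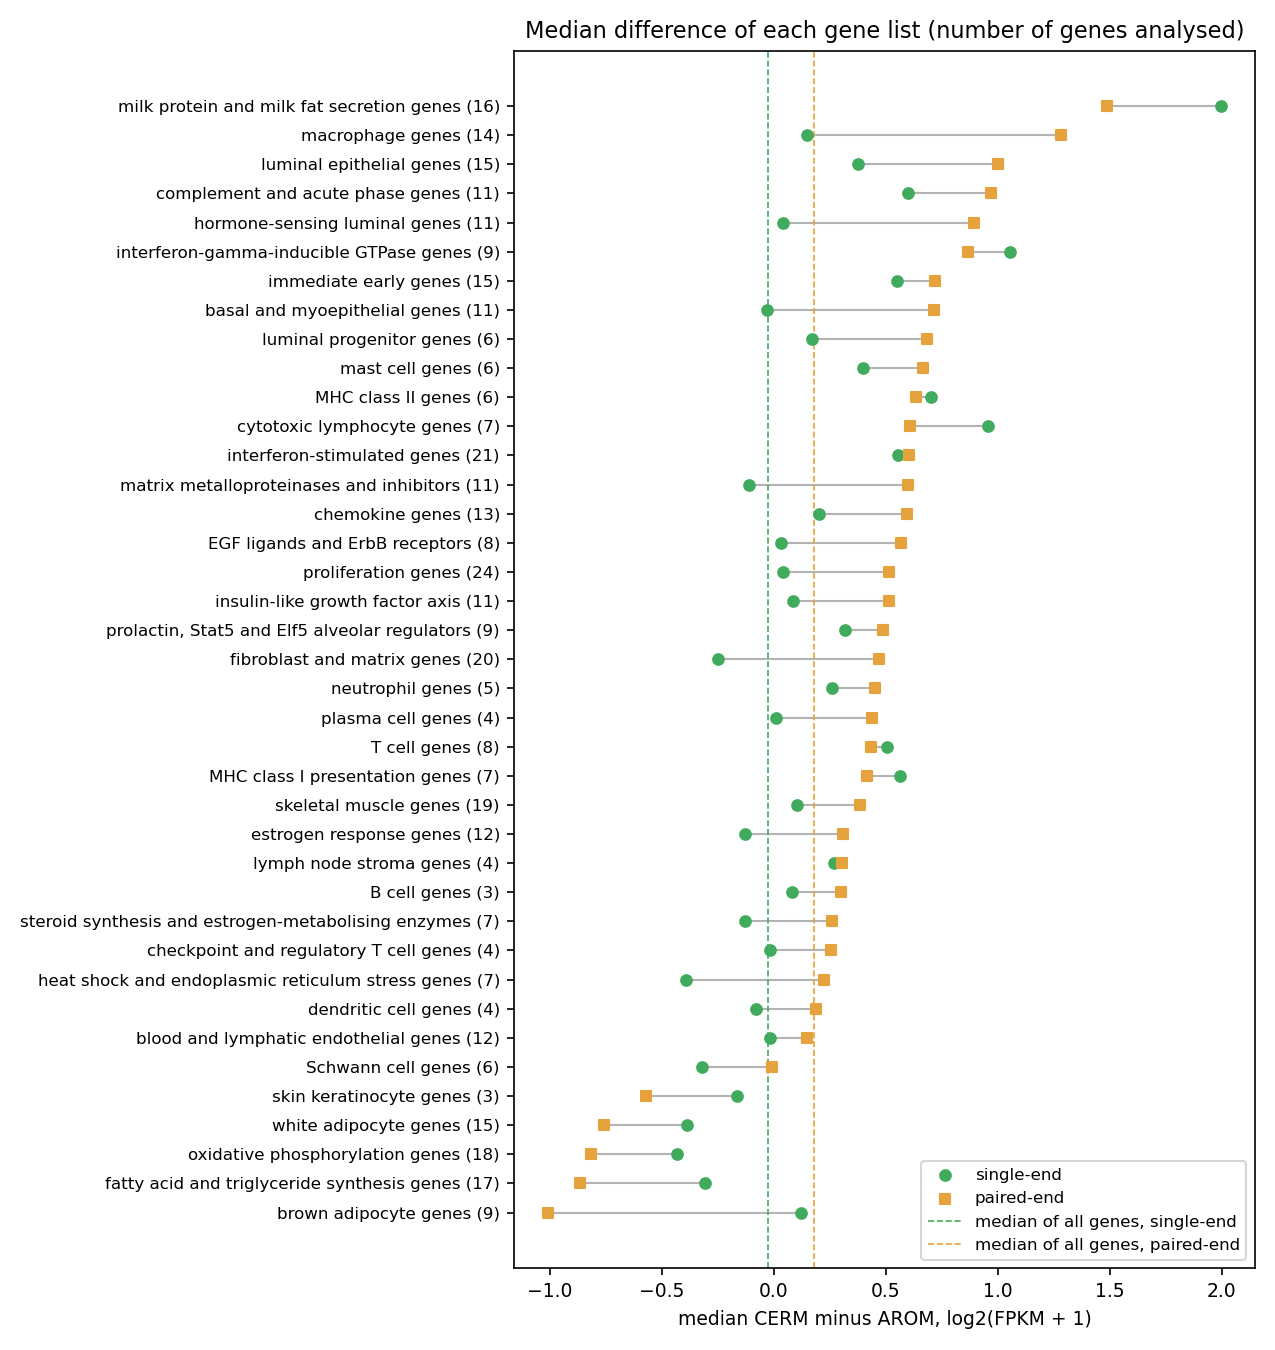
Median difference CERM minus AROM in log2(FPKM + 1) on the x axis for the 39 gene lists with at least 3 genes analysed, green circles single-end and orange squares paired-end; the dashed lines are the medians of all 11626 genes in each layout. Milk, interferon-inducible GTPase, immediate early and class II lists lie to the right in both layouts, while macrophage, hormone-sensing luminal and brown adipocyte lists are far apart.

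Some of the largest gaps belonged to single genes with 1 extreme column. Tsr1, a ribosome assembly gene, was at 9.804 FPKM in AROM and 404 in CERM single-end, and at 4.64 and 5.72 paired-end. Ercc2, which encodes a DNA repair helicase, was at 165 and 141 FPKM single-end and at 4.72 and 308 paired-end. Lars2, the mitochondrial leucyl-tRNA synthetase gene, was at 122 and 92.3 FPKM single-end and at 1443 and 62.6 paired-end. The extreme column was CERM single-end for Tsr1 and AROM paired-end for the others, low for Ercc2 and high for Lars2. Serpina1b, of a serpin family with near-identical copies, was higher in both layouts but by 1.20 against 4.52, and Rprl3, a ribonuclease P RNA-like gene, was at 27.7 FPKM in the paired-end AROM column and at most 1.05 in the others.

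The genes past 2-fold in opposite directions were nearly all small RNA loci. Of the 10, 9 carried names of small nucleolar RNAs or microRNAs, and the remaining gene was Rmrp, the RNA of the mitochondrial RNA processing ribonuclease. Rmrp was at 0.492 FPKM in AROM and 2.64 in CERM single-end, and at 64.6 and 1.28 paired-end. Many such loci lie within host genes, and reads of host and small RNA cannot be separated here. Of the 79 such loci analysed, 30 had a paired-end difference above 0 and 24 one below 0, the rest having none, and 24 had the same sign in both layouts. Without them r was 0.63 in place of 0.51, and 1 gene was past 2-fold in opposite directions.

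Calls near the threshold were set by small amounts. Among the genes just past 2-fold in both layouts were Apoc3, Ptger4, Tap1 and Wif1, whose smaller difference lay between 1.00 and 1.02 in size. Just short of it were Ifit1, Pinc, Spns3, Smpd3 and Sfxn2, whose smaller difference lay between 0.99 and 1.00. Ifit1, an interferon-induced translation inhibitor gene, was at 2.28 FPKM in AROM and 7.83 in CERM single-end, and at 2.09 and 5.18 paired-end, so that only the paired-end difference kept it from being called in both.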

How the data were processed

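FPKM values were used as the authors deposited them, in the 4 columns of AROM and CERM out of 8, over 30843 loci. The submitters' processing notes name the build mm9 and the tools TopHat, Cufflinks, FastQC and Trim Galore. Versions, strand handling and the way libraries were combined into columns were not given in the sources used here. Each column pools 2 single-end or 3 paired-end libraries by the labels. No count or depth can be had from the table, so counting errors are unknown, and no test was possible.

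Loci with no symbol (8119), several symbols (585) or a shared symbol (1719) were left out of gene counts. Differences were computed with pandas 2.3.3 and NumPy 2.4.6 in Python 3.11.15 as log2 of FPKM plus a pseudocount of 1, from values as deposited, and the procedure was tested on simulated data. The members and the 40 gene lists were chosen with earlier results of these data known, and the keratin-associated, hair keratin, Gbp and small RNA lists after their values were seen. Of 525 listed genes 401 were analysed. The named genes are Esr1, Cyp19a1 and Pgr, the 15 highest and 15 lowest in both layouts by the smaller difference, the 10 with the largest gap, the 5 nearest the threshold on each side, and up to 6 members of each list by mean difference. Genes listed at 0 or known by code names were not ranked. The result of 1 gene is not reported here. Further genes, Psap and some list members among them, were named after their values were seen. Other pseudocounts, filters, scalings and fold thresholds were tried. RefSeq promoters were matched by symbol, 8215 of 11626 genes. The table's build is GRCm38.p6 and the files' build is mm9, so no other coordinates are given.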

Additional observations from a re-analysis of the deposited data

Results flagged for a closer look

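The 10 genes past 2-fold in opposite directions in the layouts were the ones in which each layout moved the other way. The difference between layouts was not tested, since each column holds 1 value per gene. As the single-end minus the paired-end difference on the log2 scale, it was 17.98 for Snord52, 13.96 for Mir1943, 9.71 for Mir1905, 7.502 for Mir680-1, 6.13 for Rmrp, 2.85 for Snora74a and 2.20 for Mir7-1. It was -10.16 for Snord87, -4.74 for Snora44 and -2.93 for Snora69. Snord52 was listed at 0 FPKM in AROM and 247 in CERM single-end, and at 1040.3 and 0 paired-end. Mir7-1 was above 0 in all 4 columns, at 11.8 FPKM in AROM and 26.7 in CERM single-end and at 21.6 and 9.58 paired-end.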

How the results depend on the processing

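No paired analysis was possible because each column is a pool of libraries and carries no replicate, and for the same reason no replicate could be left out. Values below are given beside the reported 212 higher and 78 lower genes single-end, 491 and 266 paired-end, 166 higher and 24 lower in both, 10 opposite, r 0.51, rho 0.66 and 69.4% with the same sign. No correlation changed sign under an alternative, but among paired-end calls higher genes, 64.9% of the calls as reported, were the minority after median-ratio scaling (42.3%) and with 10 FPKM in 2 of 4 columns (48.4%). With a pseudocount of 0.1, 122 genes were lower single-end, 851 higher paired-end, 261 higher and 39 lower in both, and r was 0.54. With a pseudocount of 5, single-end calls were 86 higher and 44 lower, paired-end 175 higher and 175 lower, 48 were higher and 15 lower in both and 4 opposite, with r 0.48 and rho 0.63. With no filter on low values r was 0.395, rho 0.58 and the same-sign share 64.9%. With 1 FPKM required in all 4 columns, 107 were higher and 50 lower single-end, 84 higher in both and 1 opposite, and r was 0.62. With 10 FPKM in 2 of 4 columns, 83 were higher and 40 lower single-end, 198 higher paired-end, 60 higher and 14 lower in both and 5 opposite, with r 0.45 and rho 0.64. Median-ratio scaling gave 460 lower paired-end and 74.4% with the same sign. Quantile normalization gave 320 higher paired-end, r 0.49, rho 0.63 and 73.1%. At 1.5-fold, 548 were higher and 337 lower single-end, 1697 and 880 paired-end, 453 higher and 156 lower in both and 29 opposite. At 4-fold, these were 58, 17, 83, 28, 30, 5 and 4. With all loci of the table they were 400, 247, 765, 442, 281, 77 and 39, with rho 0.62 and 68.4% of the same sign. Among alternatives chosen after seeing the data, leaving out small nucleolar and microRNA loci gave 1 opposite gene, r 0.63 and rho 0.67, and leaving out keratin-associated and hair keratin loci gave r 0.49. The cause of these shifts was not tested, apart from fewer or more genes entering under the filters.

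Under the alternatives 40 values of single named genes crossed the 2-fold threshold, most of them of genes nearest to it, and 376 did not. Of the values of list medians under the alternatives, 219 were counted as moved and 21 as the same. Among the list medians 6 changed sign under scaling: EGF and ErbB genes (0.03 to -0.01) and proliferation genes (0.04 to -0.03) single-end, and salivary (0.04 to -0.17), dendritic cell (0.19 to -0.11), checkpoint (0.26 to -0.01) and endothelial genes (0.15 to -0.02) paired-end. With unknown depth, differences of genes near 1 FPKM cannot be given a counting error.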

Other observations

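Of the loci without a gene name, 1281 reached 1 FPKM in at least 2 of the 4 columns. In both layouts 88 of them were 2-fold higher in CERM and 48 lower, and 29 were past 2-fold in opposite directions. Of these differences 61.6% had the same sign in both layouts, with a Spearman rho of 0.43 across loci. The sum of FPKM over the 30843 loci was 1.198e+08 in the paired-end AROM column, of which 1 locus held 3.58e+07, and to 935653 in the single-end CERM column, so sums were not used for scaling.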
